A study of Mus musculus with 46 samples.

Results

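The 44 collagen alpha chain genes of the mouse were examined in 46 AB1-HA tumors. They were taken as every entry of the counts table whose symbol is Col, a number, a and a number, and made up 44 of the 46011 complete entries. AB1-HA is an established murine mesothelioma line, grown here under the skin of male BALB/c mice of 8 to 10 weeks, and each mouse carried 2 tumors. All mice received 200 mg/kg of cyclophosphamide (CY), an alkylating chemotherapy, on day 10 after inoculation. A tumor was excised for RNA sequencing and the other was left to show the response, so the response was read in a tumor other than the one sequenced. Complete responders (CR) and PR mice, called partial responders in the series' design and progressors in the paper, gave 13 CR and 13 PR tumors 1 day before CY (day -1, day 9 after inoculation), 5 CR and 5 PR tumors 3 days after CY (day 3, day 13 after inoculation) and 5 CR and 5 PR tumors 7 days after CY (day 7, day 17 after inoculation). The day -1 tumors had not yet been exposed to the drug, and there were no untreated tumors on the later days, so time after CY cannot be told apart from tumor age.

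Collagens are extracellular proteins whose 3 alpha chains wind into a triple helix, and each chain has its own gene. Fibrillar collagens form the rope-like fibrils of connective tissue, type IV forms the sheet of basement membranes, type VI forms beaded filaments, and the fibril-associated types decorate fibrils made by others. In tumors most collagen is known to be made by fibroblasts, with contributions from tumor cells, pericytes and endothelium, and the matrix it forms is known to affect stiffness and the passage of drugs and T cells. The library of RNA from a whole tumor reports all of these cells together, and fewer cells of a type cannot be told apart from less RNA per cell.

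The genes covered held 10227681 to 14218987 counts per tumor at day -1, 15412744 to 18748688 at day 3 and 16047930 to 19446596 at day 7, so depth goes with time after CY. Levels are given as CPM, the usual unit of counts relative to library size with no correction for gene length, on library sizes adjusted by the trimmed mean of M values (TMM). A gene was called where its false discovery rate (FDR, Benjamini-Hochberg adjustment of edgeR's quasi-likelihood p over all genes tested) was under 0.1. Of the 6 markers listed for mesothelium, 4 averaged under 1 CPM at day -1 and day 3 and 5 did so at day 7. CR tumor 4 at day 7 stood apart from the other 9 tumors of that day. Collagen genes took 3.87% of its counts, against 1.19% to 1.88% in the others, its fibroblast markers summed to 6093 CPM, against 2424 to 3173 CPM, and its leukocyte markers to 2764 CPM, against 4005 to 5204 CPM. The collagen share, Col3a1, Col4a5 and the leading CR against PR values at day 7 are given with and without it. Other day 7 values include it unless stated.

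Collagen RNA made up a large share of these libraries before CY, a larger one at day 3 and a smaller one at day 7. The 44 genes together took 3.76 ± 0.529% of the counts covered at day -1 (SD, n = 26), 4.82 ± 0.295% at day 3 (n = 10) and 1.81 ± 0.766% at day 7 (n = 10). The lowest share at day 3, 4.44%, lay within the day -1 range of 3.02% to 4.89%. At day 7, 9 of the 10 tumors lay at or under 1.88%, below the lowest day -1 tumor, and CR tumor 4 at 3.87% was the exception. Without it the day 7 share was 1.58 ± 0.27% (n = 9). On TMM library sizes the summed level was 37360 ± 5162 CPM at day -1, 44140 ± 2732 CPM at day 3 and 19950 ± 7384 CPM at day 7, so that the scaling made the day 3 rise smaller (4.41% of the adjusted library, against 4.82% of the counts covered). Fibrillar genes supplied 73.3 ± 0.963% of collagen counts at day -1, 72.3 ± 0.674% at day 3 and 72.8 ± 2.57% at day 7, so the fibrillar part of the total stayed near the same level while the total moved.

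**Figure D1:**
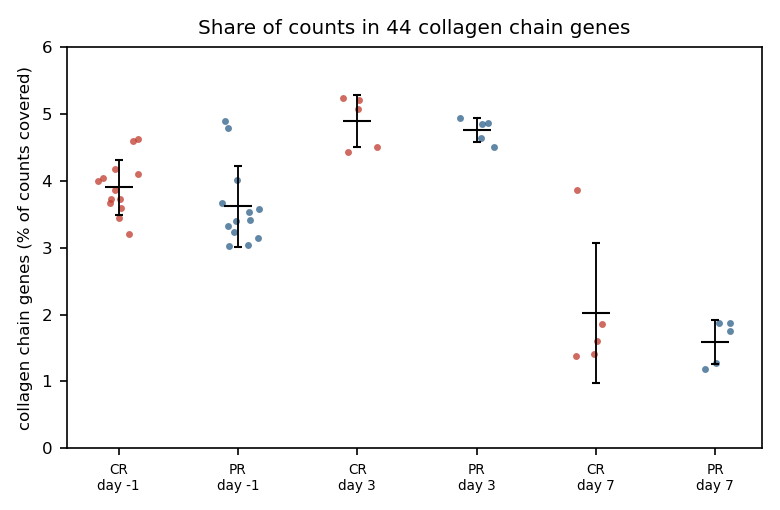
Share of the counts covered that fell in the 44 collagen chain genes, per tumor (points), with the mean and SD of each group (bars). The vertical axis is percent and starts at 0, and groups run from day -1 to day 7 with CR left of PR. The day 3 tumors lie between 4.44% and 5.24%, and the day 7 tumors lie below 2% apart from CR tumor 4 at 3.87%.

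Per kilobase of the longest coding transcript, Col3a1, the chain of the type III fibrils of distensible tissue, had the highest level of the 44 genes at each time. It reached 2892 CPM per kilobase at day -1, 3668 at day 3 and 1570 at day 7. The other leading genes per kilobase at day -1 were Col1a2 at 871 and Col1a1 at 486, the chains of type I collagen, and Col6a1 at 727 and Col6a2 at 513, chains of type VI collagen. These 5 genes also held the top 5 places at day 3 and day 7. At the other end, Col19a1, Col25a1, Col4a6 and Col9a1 did not pass the filter on low counts and were not tested. Their highest count in any tumor was 4 for Col19a1, 17 for Col25a1, 16 for Col4a6 and 5 for Col9a1.

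At day 3 against day -1, more collagen genes were higher than lower, and the largest rises were those of Col2a1, Col9a2 and Col9a3. Of 40 members tested, 20 were called higher, beside 37.9% of the 13194 genes tested, and 7 were called lower, beside 39.6%. Together 67.5% of the members were called, against 77.6% of all genes tested. The median log2 fold change was 0.18 over members and -0.02 over all genes tested. The members' share of calls was thus below that of all genes, and their median size of change, 0.39 against 0.47 on the log2 scale, was smaller too.

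The genes with the largest rise at day 3 were low in every tumor and included the chains of cartilage fibrils. Col9a3, a chain of the type IX collagen that coats type II fibrils, had a lowest, median and highest level of 7.23, 8.74 and 10.7 CPM at day 3, against 0.796, 2.09 and 3.28 CPM at day -1. It rose by 2.10 ± 0.11 on the log2 scale (SE, FDR = 6.6e-21), and the groups did not overlap. Its partner chain Col9a2 had 2.99, 4.41 and 6.63 CPM at day 3, against 0.501, 0.914 and 1.83 CPM at day -1, again with no overlap (log2 fold change 2.14 ± 0.17, FDR = 2.3e-15). Col2a1, the chain of the type II fibrils of cartilage, rose with them (log2 fold change 2.37 ± 0.31, FDR = 5.9e-09), although from 8 to 29 counts per tumor at day 3, against 0 to 5 at day -1. Of the 6 cartilage markers listed, 2 passed the filter and both were called higher at day 3, and 5 of the 6 averaged under 1 CPM there. These 2 were Epyc, a cartilage proteoglycan, at 0.703 ± 0.148 CPM at day 3 (SD, n = 10), against 0.173 ± 0.146 CPM at day -1 (n = 26), and Matn1, a cartilage matrix protein, at 3.74 ± 0.716 CPM at day 3 (SD, n = 10), against 0.0186 ± 0.0516 CPM at day -1 (n = 26). Acan, the main cartilage proteoglycan, was at 0.0979 ± 0.0897 CPM at day 3, against 0.0398 ± 0.0636 CPM at day -1, and the part of such cells in the result was not tested.

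Of the members outside the cartilage fibrils, 3 rose without overlap at day 3. Col18a1, a basement membrane collagen whose end fragment is endostatin, had 436, 507 and 549 CPM at day 3 (lowest, median and highest), against 167, 223 and 295 CPM at day -1. Its log2 fold change was 1.15 ± 0.07 (FDR = 7.9e-19). Col4a5, a type IV chain of specialised basement membranes, had 301, 369 and 470 CPM at day 3, against 108, 139 and 208 CPM at day -1 (log2 fold change 1.39 ± 0.16, FDR = 1.1e-10). Col20a1, a fibril-associated collagen, had 6.96, 8.65 and 9.19 CPM at day 3, against 2.17, 3.17 and 4.74 CPM at day -1 (log2 fold change 1.36 ± 0.08, FDR = 1.3e-19). Every day 3 tumor lay above every day -1 tumor for these 3 genes. How many of all genes tested lay apart in this way was not counted.

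The major fibrillar and beaded filament chains moved little at day 3. Col3a1 rose by 0.34 ± 0.11 (FDR = 0.0052), Col1a2 by 0.17 ± 0.07 (FDR = 0.035) and Col5a2, a type V chain that helps to set fibril width, by 0.19 ± 0.07 (FDR = 0.016) on the log2 scale. Col6a1 rose by 0.47 ± 0.10 (FDR = 9.4e-05) and Col6a2 by 0.33 ± 0.12 (FDR = 0.012). Col1a1 was not called, with a log2 fold change of -0.07 ± 0.10 (FDR = 0.49). Col7a1, the chain of the anchoring fibrils of skin (0.53 ± 0.14, FDR = 0.00081), the transmembrane chain Col23a1 (0.69 ± 0.16, FDR = 0.00013) and Col28a1 (0.66 ± 0.15, FDR = 0.00013) rose as well. All of these groups overlapped in their ranges. In CR tumors alone Col1a2, Col5a2, Col6a2 and Col7a1 were not called, with log2 fold changes of 0.13, 0.17, 0.29 and 0.31.

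The 7 members that fell at day 3 were spread over the classes. Col4a3 fell by 1.34 ± 0.18 (FDR = 4.5e-09) and Col4a4 by 0.96 ± 0.12 (FDR = 3.3e-09) on the log2 scale, the chains that pair with Col4a5 in the basement membrane of the kidney glomerulus. Col11a1, a type XI chain found in cartilage and in tumor stroma, fell by 0.75 ± 0.13 (FDR = 2.8e-06). Col5a1, the other main type V chain, had a log2 fold change of -0.40 ± 0.10 (FDR = 0.0003). Col8a1, a short-chain collagen of vessel walls and of a membrane of the cornea, had one of -0.38 ± 0.09 (FDR = 0.00023). Col8a1 had 253, 280 and 306 CPM at day 3 (lowest, median and highest), against 320, 358 and 461 CPM at day -1, and was the only one of the 40 members to lie below the day -1 range in all 10 tumors. Col12a1, a fibril-associated collagen, had a log2 fold change of -0.33 ± 0.11 (FDR = 0.0082). It was not called in PR tumors alone (-0.18, FDR = 0.32) or without the tumors over 10 CPM of Krt5 (-0.14, FDR = 0.17), a keratinocyte gene. Col5a3, the last of the 7, stood at -0.21 ± 0.10 (FDR = 0.053) and was not called in PR tumors alone (-0.14, FDR = 0.41).

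At day 7 against day -1, most collagen genes were lower, and a smaller set was higher. Of 40 members tested, 12 were called higher, beside 43% of the 13194 genes tested, and 24 were called lower, beside 42.8%. Calls covered 90% of the members, against 85.9% of all genes tested, and the median size of change was 1.07 over members, against 0.76 over all genes on the log2 scale. The median log2 fold change was -0.84 over members and -0.01 over all genes. Every one of the 24 and of the 12 had the same direction in the CR tumors fitted alone and in the PR tumors fitted alone, and 23 of the 24 and 10 of the 12 were called in both. Day 3 and day 7 were set against the same day -1 tumors, so the 2 sets of values are not independent.

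Of 11 fibrillar genes tested at day 7, 8 were called lower, beside 42.8% of all genes tested, and 2 were called higher, beside 43%, with a median log2 fold change of -0.90. Col3a1, which spans chr1:45311538-45349706 in GRCm38, had 5209, 7854 and 20900 CPM at day 7 (lowest, median and highest), against 12710, 15410 and 20950 CPM at day -1. Its log2 fold change was -0.90 ± 0.12 (FDR = 3e-09), and -1.11 without CR tumor 4, which alone of the day 7 tumors reached into the day -1 range. Col1a1 had 914, 1224 and 2069 CPM at day 7, against 2136, 2816 and 4028 CPM at day -1 (log2 fold change -1.13 ± 0.10, FDR = 8.1e-14), with no overlap. Col1a2 fell less, with a log2 fold change of -0.67 ± 0.08 (FDR = 8.8e-11).

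The deepest fibrillar falls were those of Col11a1, Col5a1 and Col5a3 (-1.25 ± 0.11, FDR = 1.2e-14), chains of the type XI and type V collagens that help to start and size fibrils. Col11a1 at chr3:114030540-114220718 had 7.94, 12.9 and 31.2 CPM at day 7, against 97.8, 134 and 213 CPM at day -1, and its log2 fold change of -3.42 ± 0.16 (FDR = 1.6e-23) is 10.7-fold lower. Col5a1 had 230, 314 and 684 CPM at day 7, against 1028, 1350 and 1737 CPM at day -1 (log2 fold change -1.998 ± 0.107, FDR = 1.4e-21). Neither gene overlapped between the days. Col5a2 fell less than Col5a1, with a log2 fold change of -0.75 ± 0.07 (FDR = 9.1e-13). Col24a1, a fibrillar collagen described in bone, rose, with 11.6, 25.3 and 40.2 CPM at day 7, against 5.13, 7.14 and 9.06 CPM at day -1, and no overlap (log2 fold change 1.81 ± 0.12, FDR = 7.5e-19). Col11a2, the other type XI chain tested, also rose (0.70 ± 0.10, FDR = 5.2e-08).

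**Figure D2:**
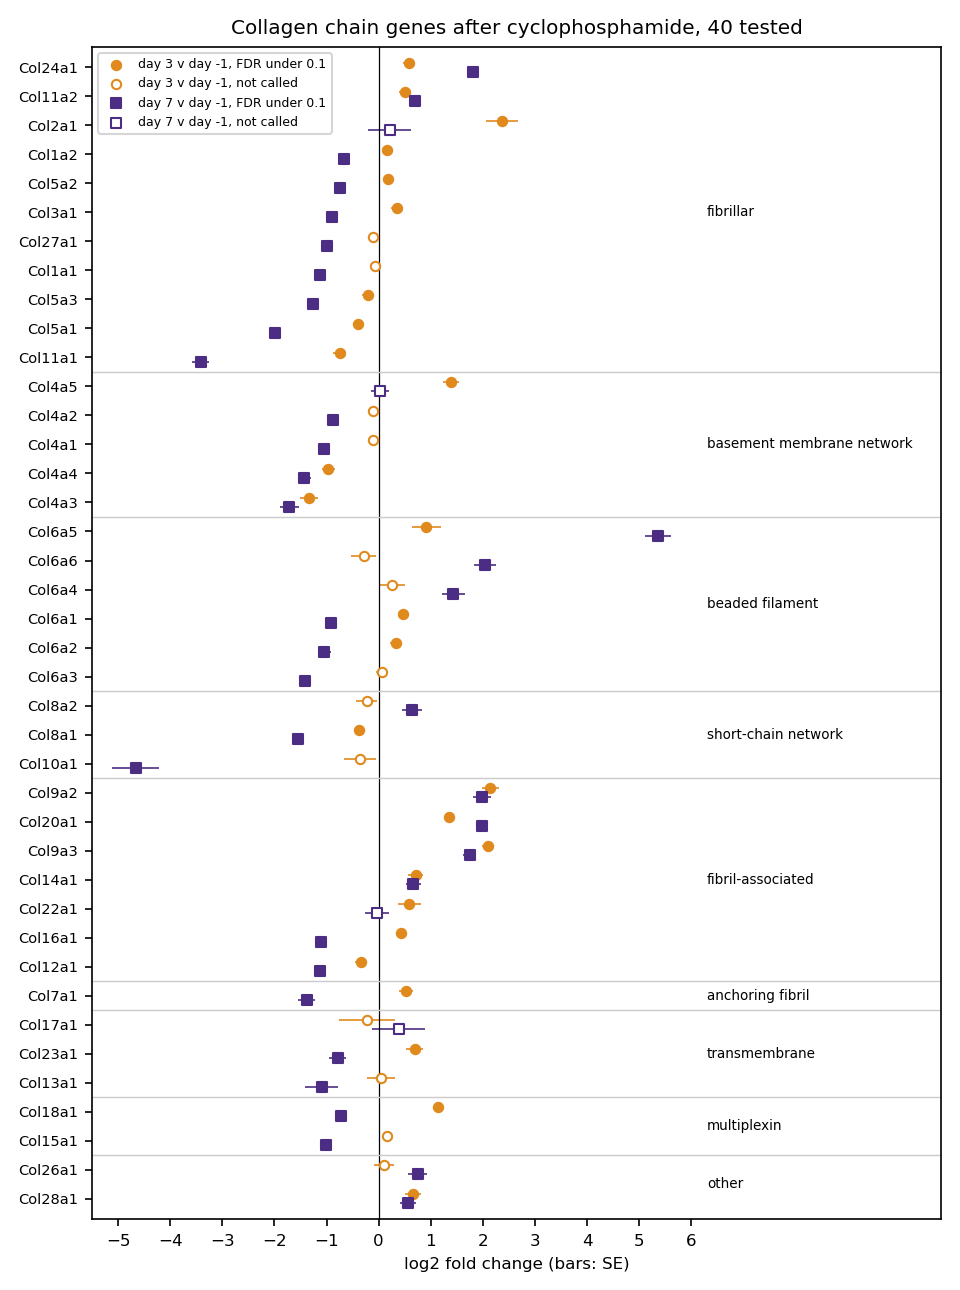
Log2 fold changes (horizontal axis, bars are SE) of the 40 collagen chain genes tested, at day 3 against day -1 (circles) and at day 7 against day -1 (squares), ordered by structural class and then by the day 7 value. Filled symbols have an FDR under 0.1. Col6a5 at 5.36 and Col10a1 at -4.66 mark the 2 ends at day 7, and both comparisons use the same day -1 tumors.

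The type VI genes divided at day 7 into 3 that fell and 3 that rose, beside 42.8% and 43% of all genes tested. Col6a1, Col6a2 and Col6a3 make the common trimer, and their log2 fold changes were -0.92 ± 0.11 (FDR = 6e-10), -1.05 ± 0.13 (FDR = 4.3e-10) and -1.41 ± 0.12 (FDR = 3.2e-14). Col6a4, Col6a5 and Col6a6 encode chains that resemble the Col6a3 product and can take its place in the trimer. Their log2 fold changes were 1.44 ± 0.23 (FDR = 2.5e-07), 5.36 ± 0.25 (FDR = 1e-23) and 2.04 ± 0.21 (FDR = 8e-12). The summed level of the first 3 genes was 6693 ± 1215 CPM at day -1 (SD, n = 26), 8508 ± 839 CPM at day 3 and 3236 ± 1219 CPM at day 7 (n = 10 each). The summed level of the other 3 was 12.3 ± 8.57 CPM at day -1, 18.3 ± 5.06 CPM at day 3 and 339.6 ± 133 CPM at day 7.

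Col6a5, at chr9:105856078-105960643 on the minus strand, had the largest rise of the 40 members at day 7. Its lowest, median and highest levels were 1.13, 6.45 and 33.0 CPM at day -1, 8.08, 15.1 and 22.0 CPM at day 3, and 135, 307 and 589 CPM at day 7. All 10 day 7 tumors lay above all 36 earlier tumors, and the fitted change from day -1 is 41.0-fold. Per kilobase it ranked 29th of the 44 genes at day -1, 26th at day 3 and 11th at day 7. Col6a6 had 1.002, 3.26 and 8.17 CPM at day -1, 1.92, 2.78 and 5.29 CPM at day 3, and 7.38, 12.6 and 25.9 CPM at day 7, and only the day 3 and day 7 ranges were apart. Col6a4 was low throughout, with 8 to 29 counts per tumor at day 7, against 1 to 16 at day -1. In CR tumor 4 at day 7, where most collagen genes were high, Col6a5 was at 222 CPM, within the 135 to 589 CPM of the other 9 tumors.

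The start region of Col6a5 is shown as the member with the largest rise. It is the RefSeq window of 250 bases before to 50 after the gene's start, at chr9:105960594-105960893 (GRCm38.p6), read on the minus strand, with capitals at the match to GGGCGG.
Col6a5: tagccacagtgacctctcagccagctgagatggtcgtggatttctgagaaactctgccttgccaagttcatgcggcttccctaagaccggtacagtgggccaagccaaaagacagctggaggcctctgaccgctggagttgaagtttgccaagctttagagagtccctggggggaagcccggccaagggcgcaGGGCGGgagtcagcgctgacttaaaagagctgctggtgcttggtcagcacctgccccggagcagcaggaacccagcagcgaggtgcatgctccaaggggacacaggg
GGGCGG or its reverse complement CCGCCC occurred in 60.5% of 38 windows of 35 collagen genes, against 35.7% of all 32851 windows of the same length, and TATAAA or TTTATA in 13.2% against 13.6%. The Col6a5 window held neither TATAAA nor CCAAT on either strand.

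**Figure D3:**
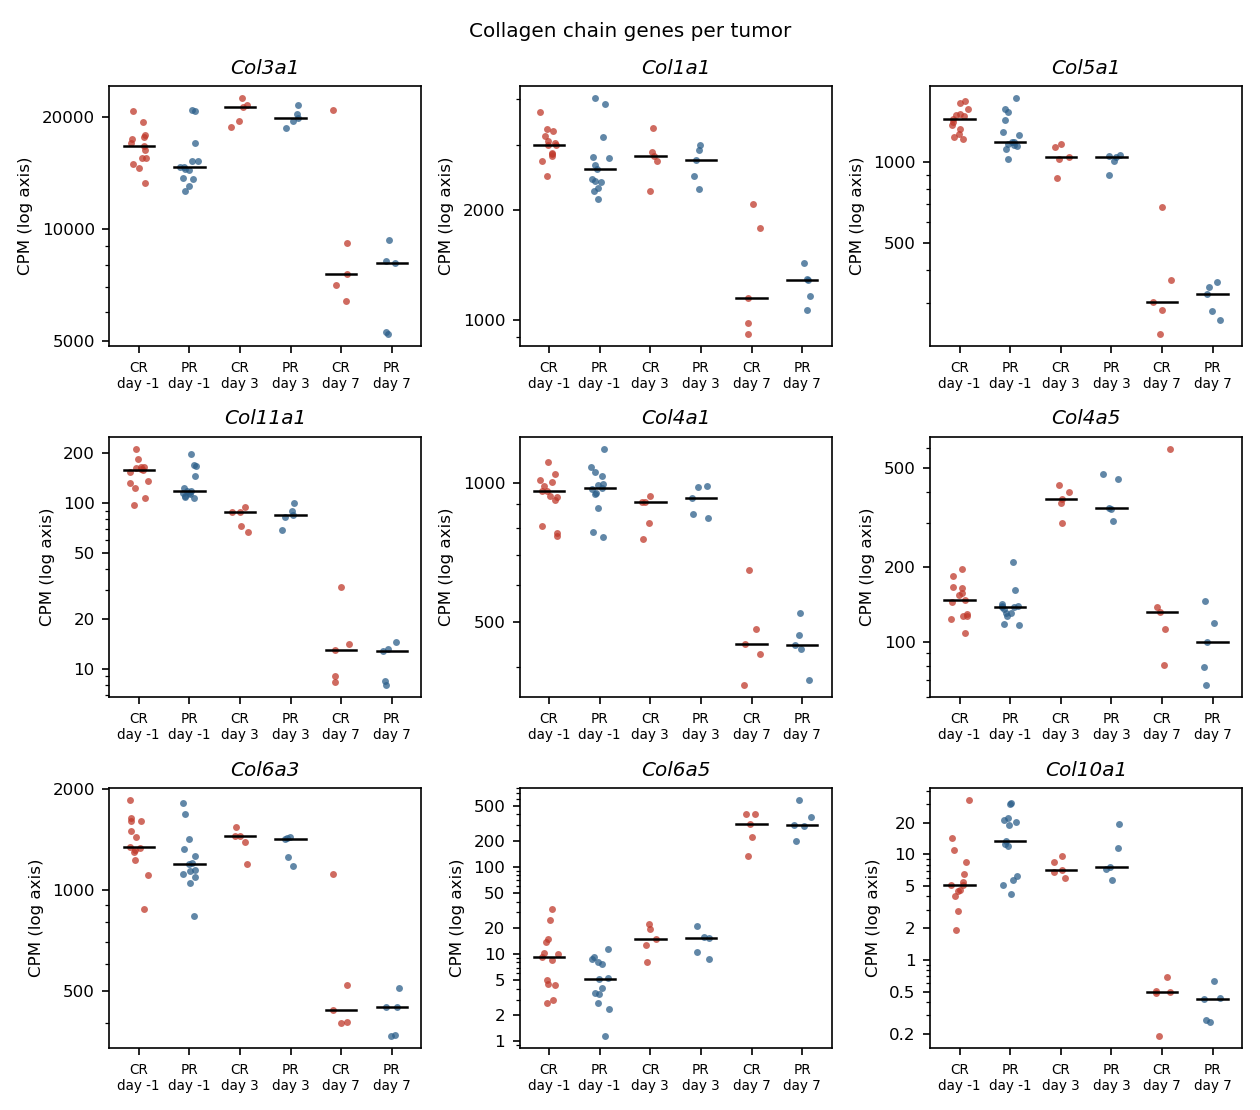
CPM of 9 collagen chain genes in each tumor (points, log axis), with the median of each group (lines). Groups run from day -1 to day 7, with CR left of PR. The 10 day 7 tumors hold 135 to 589 CPM of Col6a5 and 0.188 to 0.691 CPM of Col10a1.

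The short-chain genes gave the largest fall. Col10a1, the chain of a network made by hypertrophic cartilage, lies at chr10:34389981-34397085. It had 1.92, 7.51 and 33.0 CPM at day -1 (lowest, median and highest), 5.77, 7.37 and 19.4 CPM at day 3, and 0.188, 0.464 and 0.691 CPM at day 7. The day 7 tumors held 3 to 12 counts each and all lay below the 36 earlier tumors, with a log2 fold change from day -1 of -4.66 ± 0.45 (FDR = 5.8e-13), 25.4-fold lower. At day 3 it was not called (-0.36 ± 0.31, FDR = 0.29). Col10a1 was singled out for this value after the values were seen.

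The start region of Col10a1 is shown as that of the member with the largest fall, at chr10:34389731-34390030 (RefSeq, GRCm38.p6, plus strand), with capitals at the TATAAA match that begins 32 bases before the start.
Col10a1: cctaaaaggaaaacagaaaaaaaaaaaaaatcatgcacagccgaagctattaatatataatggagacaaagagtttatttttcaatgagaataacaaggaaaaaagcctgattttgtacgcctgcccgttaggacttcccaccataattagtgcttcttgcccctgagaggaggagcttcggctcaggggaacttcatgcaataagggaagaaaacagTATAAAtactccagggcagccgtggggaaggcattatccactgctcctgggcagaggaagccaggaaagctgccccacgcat
This window held no CCAAT and no GGGCGG on either strand. CCAAT or ATTGG was in 34.2% of the collagen windows and 37.4% of all windows.

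Of the other short-chain genes, Col8a1 had 93.7, 99.3 and 245 CPM at day 7 (lowest, median and highest), against 320, 358 and 461 CPM at day -1, without overlap (log2 fold change -1.55 ± 0.10, FDR = 3.5e-19). Its partner Col8a2 rose from a low level, by 0.63 ± 0.19 on the log2 scale (FDR = 0.0026), and its ranges overlapped. In CR tumors alone the Col8a2 change was 0.44 and not called (FDR = 0.135).

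In the basement membrane class, 4 of 5 type IV genes tested fell at day 7, beside 42.8% of all genes tested, and none rose, beside 43%. Col4a1 had 364, 447 and 649 CPM at day 7, against 763, 966 and 1187 CPM at day -1, without overlap (log2 fold change -1.05 ± 0.07, FDR = 3.1e-18). Col4a2, with which it makes the common type IV trimer, had 276, 351 and 446 CPM at day 7, against 507, 647 and 736 CPM at day -1, also without overlap (-0.88 ± 0.06, FDR = 4.7e-17). Col4a3 (-1.71 ± 0.18, FDR = 1.2e-11) and Col4a4 (-1.42 ± 0.13, FDR = 1.1e-13) fell further. Col4a5 depended on a tumor. It was not called with all 10 day 7 tumors (0.03 ± 0.17, FDR = 0.88), and without CR tumor 4, which held 596 CPM against 66.6 to 145 CPM in the other 9, it was called lower (-0.40, FDR = 0.00072). In CR tumors alone, CR tumor 4 included, it was called higher (0.51 ± 0.23, FDR = 0.042) and in PR tumors alone lower (-0.46 ± 0.24, FDR = 0.083). The next highest CR tumor of day 7 held 137 CPM, and CR tumors were not fitted alone without CR tumor 4.

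The type IV genes lie in pairs that start head to head on opposite strands. The annotated starts of Col4a1 and Col4a2 on chr8 overlap by 22 bases, those of Col4a4 and Col4a3 on chr1 are 72 bases apart, and those of Col4a6 and Col4a5 on chr X are 1309 bases apart (GENCODE M21, GRCm38). Whether the counting used strand is not given in the sources used here, so reads within the 22 bases cannot be assigned to Col4a1 or Col4a2. Start windows of the Col4a1 and Col4a2 pair and of the Col4a4 and Col4a3 pair are shown because both genes of each of these 2 pairs fell at day 7. In the Col4a1 (minus strand) and Col4a2 (plus strand) windows, at chr8:11312777-11313076 and chr8:11312555-11312854 (RefSeq, GRCm38.p6), capitals mark the 78 bases that the 2 windows share on opposite strands. In the Col4a4 window at chr1:82586800-82587099, read on the minus strand, capitals mark the stretch of 73 bases that begins at the start of Col4a3 and ends at the start of Col4a4.
Col4a1: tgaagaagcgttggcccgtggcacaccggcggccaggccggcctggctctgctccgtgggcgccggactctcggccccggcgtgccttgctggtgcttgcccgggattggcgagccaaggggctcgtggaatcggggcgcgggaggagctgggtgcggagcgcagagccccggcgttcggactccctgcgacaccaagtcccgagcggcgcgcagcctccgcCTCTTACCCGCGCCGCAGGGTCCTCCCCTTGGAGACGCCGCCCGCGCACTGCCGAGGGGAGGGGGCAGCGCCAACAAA
Col4a2: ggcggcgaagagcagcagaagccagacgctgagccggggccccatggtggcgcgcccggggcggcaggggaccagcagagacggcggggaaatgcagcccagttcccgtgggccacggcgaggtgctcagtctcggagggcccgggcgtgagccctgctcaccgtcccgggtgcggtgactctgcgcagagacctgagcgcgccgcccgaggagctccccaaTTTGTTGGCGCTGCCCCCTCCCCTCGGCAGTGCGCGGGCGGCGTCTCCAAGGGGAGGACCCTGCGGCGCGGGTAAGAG
Col4a4: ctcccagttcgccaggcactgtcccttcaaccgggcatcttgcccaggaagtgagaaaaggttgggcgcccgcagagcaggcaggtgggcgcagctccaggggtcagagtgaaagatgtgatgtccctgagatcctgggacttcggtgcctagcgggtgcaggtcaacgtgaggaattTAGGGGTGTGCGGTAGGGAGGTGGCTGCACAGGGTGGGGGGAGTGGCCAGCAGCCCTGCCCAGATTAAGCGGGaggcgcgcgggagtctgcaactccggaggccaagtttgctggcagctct
The Col4a1 and Col4a2 windows each held CCAAT and GGGCGG matches and no TATAAA.

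Among the remaining classes at day 7, 4 of 7 fibril-associated genes rose, beside 43% of all genes tested, and 2 fell, beside 42.8%. Col20a1 had 9.56, 13.0 and 15.7 CPM at day 7, against 2.17, 3.17 and 4.74 CPM at day -1, without overlap (log2 fold change 1.98 ± 0.08, FDR = 1.8e-26). Col9a2 (1.98 ± 0.17, FDR = 2.2e-14) and Col9a3 (1.75 ± 0.12, FDR = 3.7e-18) also rose, and the Col9a3 ranges were apart while those of Col9a2 overlapped. Col12a1 (-1.13 ± 0.12, FDR = 1e-11) and Col16a1 (-1.11 ± 0.09, FDR = 9e-15), which attach to fibrils, fell. Col16a1 reached 254 CPM in CR tumor 4, against 92.8 to 127 CPM in the other 9 day 7 tumors. Col7a1 (-1.38 ± 0.16, FDR = 8.6e-11), Col18a1 (-0.73 ± 0.08, FDR = 1.8e-11) and Col23a1 (-0.79 ± 0.17, FDR = 5.6e-05) fell, and Col28a1 rose (0.57 ± 0.15, FDR = 0.00076) although it was not called in PR tumors alone (0.38, FDR = 0.104).

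At day 7 against day 3, which share their tumors with the comparisons above, most members were lower. Of 40 members tested, 7 were called higher, beside 38.8% of all genes tested, and 27 were called lower, beside 36.5%. The share of members called was 85%, against 75.3% of all genes, and the median log2 fold change was -0.91 over members and 0.02 over all genes. In 18 members every day 7 tumor lay below every day 3 tumor, and in 3 members, Col20a1, Col6a5 and Col6a6, every day 7 tumor lay above. Ranges were compared for collagen genes only, so these counts have no share over all genes beside them. Col18a1, called higher at day 3, had 94.0, 135 and 194 CPM at day 7, against 436, 507 and 549 CPM at day 3 (log2 fold change -1.87 ± 0.09, FDR = 3.9e-22). Col11a1 (-2.67 ± 0.17, FDR = 2.2e-18), Col16a1 (-1.54 ± 0.11, FDR = 4.2e-17), Col5a1 (-1.60 ± 0.12, FDR = 2.2e-16), Col4a1 (-0.95 ± 0.08, FDR = 1.6e-14) and Col5a2 (-0.94 ± 0.09, FDR = 2.1e-13) followed by the size of p. The rises with the smallest p were those of Col6a5 (4.44 ± 0.34, FDR = 1.4e-15), Col24a1 (1.23 ± 0.15, FDR = 5e-10), Col6a6 (2.32 ± 0.29, FDR = 8.9e-10), Col20a1 (0.62 ± 0.10, FDR = 2.3e-07), Col6a4 (1.17 ± 0.28, FDR = 0.0002) and Col8a2 (0.86 ± 0.23, FDR = 0.0012).

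Chains of the same protein did not keep their proportions over time. The ratio of 2 genes within a tumor does not depend on how libraries are scaled, and it is given as log2 of the CPM ratio with its SD (n = 26 at day -1 and 10 at each later day), as a description with no test. Col1a1 over Col1a2, whose products join at 2 to 1 in type I collagen, was -0.70 ± 0.06 at day -1, -0.94 ± 0.09 at day 3 and -1.18 ± 0.15 at day 7. Col5a1 over Col5a2 was -0.36 ± 0.15 at day -1, -0.95 ± 0.17 at day 3 and -1.63 ± 0.20 at day 7. For Col5a1 over Col5a2 no tumor of one day reached the range of another. Col1a1 over Col1a2 lay between -0.83 and -0.60 at day -1 and between -1.47 and -0.93 at day 7, so these days did not overlap.

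Other pairs were steadier or shifted late. Col4a1 over Col4a2 was 0.58 ± 0.05 at day -1, 0.58 ± 0.04 at day 3 and 0.41 ± 0.06 at day 7. Col6a1 over Col6a2 was 0.32 ± 0.05 at day -1, 0.47 ± 0.07 at day 3 and 0.47 ± 0.10 at day 7. Col8a1 over Col8a2 was 7.98 ± 0.66 at day -1, 7.80 ± 0.48 at day 3 and 5.76 ± 0.92 at day 7. The ratio of Col6a5 to Col6a3, chosen after the values were seen, was -7.68 ± 0.93 at day -1, -6.61 ± 0.52 at day 3 and -0.65 ± 0.80 at day 7, where the highest tumor, at 0.40, held more Col6a5 than Col6a3 counts.

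**Figure D4:**
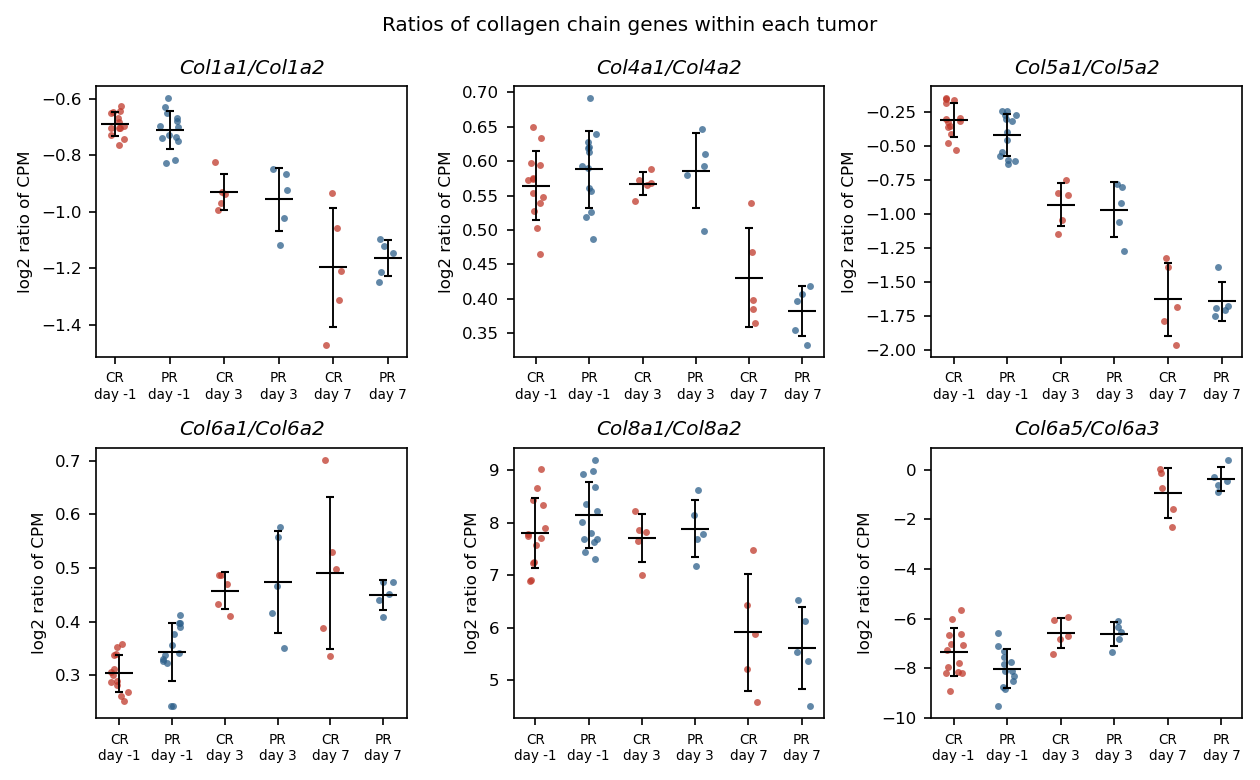
Log2 ratio of the CPM of 2 collagen chain genes within each tumor (points), with the mean and SD of each group (bars), from day -1 to day 7 with CR left of PR. Col5a1 over Col5a2 steps down at each time, to -1.63 at day 7, while Col4a1 over Col4a2 lies between 0.33 and 0.69 in all tumors.

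No collagen gene was called between CR and PR tumors on any day. At day -1, 0 of 36 members tested were called higher in CR, beside 0% of the 10777 genes tested, and 0 were called lower, beside 0.00928%. At an unadjusted p under 0.05 the edgeR test gave 6 of 36 members, against 17.5% of all genes tested. The median log2 fold change was 0.12 over members and -0.01 over all genes, with 24 members above 0 and 12 below. Other tools differed, since DESeq2 called 1 member and 443 genes and limma-voom called 3 members and 1188 genes. The levels of CR and PR overlapped in all 40 members at each time. Ranges were compared for collagen genes only, so this count has no share over all genes beside it.

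The 4 members with the smallest p at day -1 were 2 with a higher and 2 with a lower mean in CR. Col20a1 had a lowest, median and highest level of 2.54, 3.80 and 4.74 CPM in CR tumors, against 2.17, 2.50 and 3.90 CPM in PR tumors, with a log2 fold change of 0.47 ± 0.11 (FDR = 0.12). DESeq2 (FDR = 0.031), limma-voom (FDR = 0.022), a model of all 46 tumors (FDR = 0.05) and the title number as a covariate (FDR = 0.07) each called it. Col6a5 had 2.75, 9.29 and 33.0 CPM in CR tumors, against 1.13, 5.12 and 11.6 CPM in PR tumors (0.98 ± 0.37, FDR = 0.19). Col10a1 had 1.92, 5.10 and 33.0 CPM in CR tumors, against 4.23, 13.3 and 30.5 CPM in PR tumors (-0.92 ± 0.38, FDR = 0.21), and Col4a3 had 3.54, 7.03 and 13.8 CPM in CR tumors, against 5.31, 10.4 and 15.3 CPM in PR tumors (-0.45 ± 0.19, FDR = 0.22). Tumors numbered up to 14 and above 14 in the titles were also fitted apart, and the log2 fold changes were 0.46 and 0.48 for Col20a1, 1.11 and 0.72 for Col6a5, -0.91 and -0.96 for Col10a1, and -0.47 and -0.42 for Col4a3.

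At day 3, 0 of 39 members tested were called in either direction, beside 0% of the 11839 genes tested in each direction. In edgeR 1 member had an unadjusted p under 0.05, against 2.16% of all genes tested. DESeq2 and limma-voom called 0 members. The member was Col17a1, a transmembrane collagen that anchors keratinocytes, at 3.88, 3.29, 4.19, 2.30 and 3.87 CPM in CR tumors, against 30.4, 4.61, 3.99, 3.34 and 4.23 CPM in PR tumors (log2 fold change -1.42 ± 0.60, FDR = 1). Without PR tumor 1 the value was -0.19. PR tumor 1 was far above the other 9 tumors in Col17a1 and held 170 CPM of the keratinocyte gene Krt5, and the part of skin RNA in this value was not tested. Col14a1, a fibril-associated collagen (0.34 ± 0.18), Col6a6 (0.41 ± 0.23) and Col7a1 (-0.27 ± 0.15) were next, each with an FDR of 1 and overlapping ranges. Leaving out 1 tumor moved them over 0.22 to 0.47 (lowest without CR tumor 4), 0.19 to 0.56 (lowest without CR tumor 4, highest without CR tumor 1) and -0.38 to -0.18 (smallest without PR tumor 1).

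At day 7, 0 of 36 members tested were called in either direction, beside 0% of the 11727 genes tested in each direction. In edgeR 0 members had an unadjusted p under 0.05, against 2.84% of all genes tested. DESeq2 and limma-voom again called 0 members. Col4a5 was at 80.5, 137, 132, 596 and 112 CPM in CR tumors, against 119, 145, 79.3, 100.02 and 66.6 CPM in PR tumors (log2 fold change 1.07 ± 0.51, FDR = 0.97). Without CR tumor 4 the value was 0.18. Col3a1 (0.51 ± 0.33), Col6a3 (0.44 ± 0.28) and Col8a1 (0.38 ± 0.27) were next, all with an FDR of 0.97, and were 0.06, 0.04 and 0.07 without that tumor.

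The difference between CR and PR was also compared between days. For day 3 against day -1, 0 of 40 members were called, beside 0% of genes tested in each direction. At an unadjusted p under 0.05 in edgeR there was 1 member, against 3.49% of all genes tested. For day 7 against day -1, 0 of 40 members were called, beside 0.00758% of genes higher and 0% lower. Here 4 of the 40 members had an unadjusted p under 0.05 in edgeR, against 11.5% of all genes tested. DESeq2 and limma-voom called 0 members in both.

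**Figure D5:**
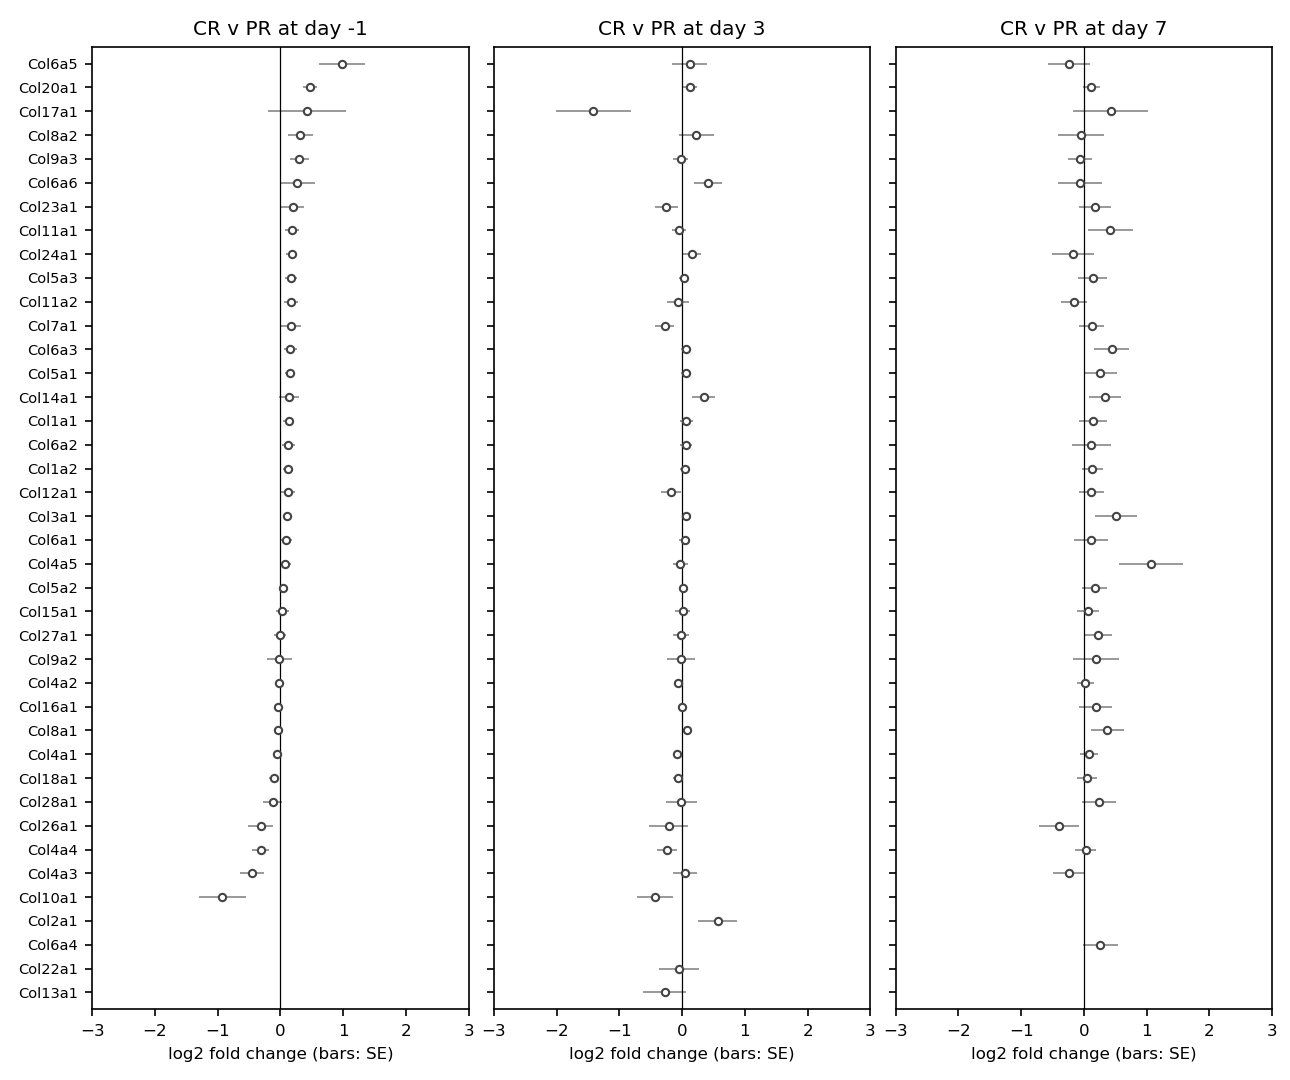
Log2 fold changes of CR over PR tumors (horizontal axis, bars are SE) for the collagen chain genes tested at day -1, day 3 and day 7, ordered by the day -1 value. None had an FDR under 0.1, and the values run from -0.92 to 0.98 at day -1. A gene with no point was not tested on that day.

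Before CY, the levels of many collagen genes were correlated across tumors. Over the 26 day -1 tumors, log2(CPM + 0.1) was correlated for all 630 pairs of 36 members, with permutation p of 100000 resamples adjusted over the pairs. An adjusted p under 0.05 was found for 183 pairs, 157 positive and 26 negative, with a median Pearson r of 0.15 over all pairs. Correlations were not computed for other genes, so this count has no share over all genes beside it. Col6a1 and Col6a2 had a Pearson r of 0.99 and a Spearman rho of 0.98, and Col1a1 and Col1a2 had 0.98 and 0.99. Each of these had a permutation p of 1e-05, the smallest that 100000 resamples can give, and an adjusted p of 0.00017 for r. Leaving out the 2 tumors farthest from the median left r at 0.99 and 0.98, and the r within the tumors numbered up to 14 and above 14 was 0.99 and 0.99 for Col6a1 and Col6a2, and 0.99 and 0.98 for Col1a1 and Col1a2.

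Both head-to-head type IV pairs that could be tested were among the correlated ones. Col4a1 and Col4a2 had a Pearson r of 0.95 and a Spearman rho of 0.93 (permutation p = 1e-05, adjusted p = 0.00017), with r at 0.92 without the 2 outermost tumors and at 0.98 and 0.95 within the title numbers up to 14 and above 14. Col4a3 and Col4a4 had 0.87 and 0.86 (permutation p = 1e-05, adjusted p = 0.00017), with r at 0.84 without the 2 outermost tumors and at 0.90 and 0.67 within the title numbers. Col10a1, on another chromosome and of another class, had a Pearson r of 0.92 and a Spearman rho of 0.91 with Col4a3 (permutation p = 1e-05, adjusted p = 0.00017), with r at 0.90 without the 2 outermost tumors and at 0.89 and 0.91 within the title numbers. The pairs share libraries, so the 630 values are not independent.

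Genes that process or bind collagen moved in both directions. In edgeR no gene of these lists was called between CR and PR. Of all genes tested, 0% were called higher and 0.00928% lower at day -1, and 0% in each direction at day 3 and day 7. DESeq2 and limma-voom values were not examined for these lists. Of the 17 fibril-binding proteoglycans and glycoproteins tested, 9 rose and 7 fell at day 7 against day -1, with 43% of all genes tested called higher and 42.8% lower as the background for this and the following day 7 counts. Among them were Dcn, the fibril-coating proteoglycan decorin, at a log2 fold change of 2.22 and Comp, a cartilage and tendon protein that binds fibrils, at 2.96, while Fbln2 stood at -1.33 and Bgn, biglycan, at -0.63. The median log2 fold change of this list was 0.34, against -0.01 over all genes. Of the 13 basement membrane partners tested, 5 rose and 8 fell, with the laminin chains Lamc1 at -1.57 and Lamb1 at -1.24, perlecan (Hspg2) at -1.35, and a median of -0.52. Of 15 genes for collagen modification and folding, 6 rose and 9 fell, among them Colgalt1, which adds galactose to collagen (0.75), and the chaperone Fkbp10 (-1.32), and the median was -0.19. Of 8 genes for propeptide removal and crosslinking, 3 rose and 4 fell, with the crosslinking enzymes Loxl4 at -1.31 and Loxl3 at 1.10, and a median of -0.14.

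Most genes for collagen breakdown rose at day 3. Of 13 breakdown genes tested at day 3 against day -1, 12 rose, beside 37.9% of all genes tested, and 0 fell, beside 39.6%, with Ctsb, a lysosomal protease (1.38), Mmp14, a membrane collagenase (0.90), Mmp10 (2.97) and Ctsl (0.64), and a median log2 fold change of 1.17, against -0.02 over all genes. At day 7, 8 rose and 3 fell, with Mmp8, the collagenase of neutrophils, at 4.73, Ctss at 2.82, Mmp3 at 1.87 and Ctsb at 1.26, and a median of 0.37. Of 10 collagen receptors tested, 4 rose and 4 fell at day 7, and Itga1 (2.24) and the inhibitory leukocyte receptor Lair1 (2.35) were opposite to Ddr2, a collagen-binding kinase (-1.65). In the TGF-beta axis, 5 of 12 genes rose and 6 fell at day 7, with Inhba, an activin chain, at -2.67 and Nrros, which holds latent TGF-beta on myeloid cells, at 2.79.

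Cell type markers also shifted between days. The 8 fibroblast markers summed to 1278 ± 192 CPM at day -1 (SD, n = 26), 3274 ± 409 CPM at day 3 and 3165 ± 1054 CPM at day 7 (n = 10 each). At day 7 against day -1, 6 of the 8 rose and 1 fell while 24 of 40 collagen genes fell. The similar sums at day 3 and day 7 hide opposite moves. Mean Dcn went from 919 CPM at day 3 to 1770 CPM at day 7, and Clec3b from 26.6 to 45.5 CPM. Over the same days Lum went from 1010 to 556, Dpt from 562 to 421 and Islr from 447 to 154.5 CPM. Mfap5 went from 244 to 168 and Fap from 32.0 to 17.6 CPM, while Fbln1 stayed at 33.1 CPM. The summed mesothelium markers were 399 ± 81.2 CPM at day -1, 383 ± 67.7 CPM at day 3 and 67.9 ± 23.4 CPM at day 7. Nearly all of this sum was Msln, mesothelin, at 385 ± 76.0 CPM at day -1, 353 ± 44.1 CPM at day 3 and 65.9 ± 22.1 CPM at day 7, so it stands for 1 gene. The summed leukocyte markers were 824 ± 156, 1261 ± 124 and 4378 ± 649.6 CPM, and the summed macrophage markers 4122 ± 819, 11680 ± 1063 and 19090 ± 2566 CPM, in the same order of days. Most of the leukocyte rise at day 3 was Laptm5, with a mean of 368 CPM at day -1 and 785 CPM at day 3. Cd53 went from 128 to 167 and Coro1a from 102 to 118 CPM, while Cd52 went from 62.4 to 50.2 and Itgb2 from 164 to 141 CPM. The part of these shifts in the collagen results was not tested.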

How the data were processed

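RNA of 46 tumors, each from a different mouse, was sequenced, and tumors were grouped by the response and time in their labels. The labels name 50 bp single-end reads and the paper's methods 100 bp. Per the submitters' processing notes, kallisto and GRCm38.p6 were used. The authors deposited raw counts for each gene symbol, and the kallisto version, its strand setting and the step from transcripts to genes are not given in the sources used here. Of 46012 entries the last, Pax7, was incomplete, and symbols after it were not analysed here. The table covered 64.2% of protein-coding names in GENCODE M21, so totals are partial library sizes.

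Counts passed filterByExpr and were scaled by TMM, and edgeR 4.0.16 (R 4.3.3, glmQLFit and glmQLFTest) gave p-values, adjusted by Benjamini-Hochberg over all genes tested and called at an FDR under 0.1. The study itself tested with DESeq2, used here as an alternative, and stated that threshold for CR against PR. CR and PR were compared within each day. Comparisons of days, and of CR and PR between days, came from 1 model of 6 groups over all 46 tumors, with equal weight to CR and PR. SE is the size of the log2 fold change over the square root of F. No libraries were identical among 1035 pairs. The fits were tested on simulated data in which far fewer genes changed than were called here between days. That test therefore does not cover the comparisons of days as found. Lengths and coordinates are from GENCODE M21, and start windows from RefSeq (GRCm38.p6), which matched 35 of 44 members.

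Full values are given for up to 6 called members per direction with the smallest p in each comparison of days, the 4 with the smallest p in each comparison of CR and PR, the member with the highest mean level in each class, the members of chain pairs, and up to 4 genes per other list and comparison. Members outside this rule, among them Col10a1, Col4a3, Col4a4, Col6a3 and Col6a4 at day 7, were named after their values were seen. Members and lists were chosen with earlier results of these data known. Alternatives were other scalings (DESeq2's size factors, upper quartile, total counts), other low-count filters, DESeq2 1.42.0, limma-voom (limma 3.58.1), an FDR of 0.05, thinned counts, CR or PR tumors alone, a model of all tumors, covariates, leaving out 16 tumors over 10 CPM of Krt5, and leaving out each tumor. The fits within title numbers, 6 of the chain ratios and the reading without CR tumor 4 at day 7 were added after seeing the data.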

Additional observations from a re-analysis of the deposited data

Results flagged for a closer look

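In each group of 5 tumors, the highest and lowest value of 33 members and of the sum over all collagen genes was set against the other 4. The 33 were the members that the rule on full values named in any comparison. That rule takes in members with the smallest p in these data, and low counts did not keep a named member out. In all, 13 of 136 such groups held a tumor far from the rest. Chance gives about 5% for groups that are independent of each other. These groups share tumors, so 13 of 136 cannot be judged against that rate. CR tumor 4 at day 7 gave 9 of the 13. It had 20900 CPM of Col3a1 (next highest CR tumor 9184), 1709 CPM of Col5a2 (977), 31.15 CPM of Col11a1 (14.1), 253.7 CPM of Col16a1 (118), 595.7 CPM of Col4a5 (137), 2896 CPM of Col6a1 (1559), 2294 CPM of Col6a2 (1103) and 1115 CPM of Col6a3 (520), and 39580 CPM summed over all collagen genes (20870). Its fibroblast markers were high and its leukocyte markers low beside the other day 7 tumors, and their part in these values was not tested.

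PR tumor 1 at day 3 had 30.42 CPM of Col17a1, against at most 4.61 CPM in the other 4 PR tumors of that day, and it also held the most Krt5 of that day. CR tumor 4 at day 3 had 6.963 CPM of Col20a1, below the 8.78 CPM of the nearest CR tumor. Col2a1 was at 0.4826 CPM in PR tumor 4 and at 0.3483 CPM in CR tumor 3 at day 7, against 0.14 and 0.128 CPM in the nearest tumors of their groups, and day 7 tumors held 1 to 8 counts of it.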

How the results depend on the processing

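Between CR and PR at day -1, where edgeR called 0 members, 1 was called higher with DESeq2, with limma-voom, with all 46 tumors in 1 model and with the title number as a covariate, and it was Col20a1 each time. Lower calls numbered 2 with limma-voom and 1 with the title number. Leaving out 1 tumor at a time gave 0 to 1 higher and 0 to 2 lower calls, with 1 higher and 2 lower without CR tumor 3 and 1 higher without PR tumor 7, 9 or 12. Leaving out 1 tumor, members called ranged over 20 to 21 higher and 6 to 8 lower at day 3 against day -1, 12 to 12 and 24 to 25 at day 7 against day -1, and 7 to 9 and 26 to 28 at day 7 against day 3. Other settings went outside these ranges, with 21 higher and 9 lower at day 3 and 13 higher at day 7 with limma-voom, and 15 of the 20 higher calls at day 3 in CR tumors alone. Among the values that the rule on full values named, those not called turned sign in 7 cases. Values outside that rule were not counted. Among those, Col4a5 at day 7 against day -1 turned sign as well, to -0.40 without CR tumor 4. With total counts the day 3 log2 fold changes of Col4a1, Col1a1 and Col4a2 were 0.0204, 0.0453 and 0.0201. Without the tumors over 10 CPM of Krt5, Col8a2 at day 3 was 0.0081 and Col4a5 between CR and PR at day 7 was -0.0597. Col28a1 at day 7 against day 3 was 0.0351 in CR alone and ranged from -0.2471 to 0.0234 without 1 tumor. The collagen share at day 3 was 4.823% of the counts covered, against 4.41% on TMM sizes. Total counts moved the median of all genes by 0.119 at day 3 and -0.163 at day 7 against day -1. Causes were not tested. No paired analysis was possible because the replicate numbers only name tumors, each from a different mouse, and pair none across groups. Low counts limit Col2a1, Col6a4 and, at day 7, Col10a1.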
